A study of Mus musculus with 6 samples.

Results

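The 10 genes described here encode parts of the Notch pathway: the receptors Notch1, Notch2 and Notch3, the ligands Dll1, Dll4, Jag1 and Jag2, the DNA-binding factor Rbpj, and the transcriptional regulators Hes1 and Hes6. They were chosen by name, and all 10 were found among the 23725 genes of the deposited table. The 3 knockout and 3 wild-type libraries were made from mRNA of uncultured epithelial cells of the colon, enriched by Percoll from mice on the C57BL/6J background. The knockout mice carried the genotype B6-Cg-Nr3c1-Vil-Cre/ERT2, labelled Nr3c1IEC-/-, in which a tamoxifen-inducible Cre under the villin promoter, active in intestinal epithelium, removes Nr3c1. That gene encodes the glucocorticoid receptor. The labels give the same treatment for both groups, tamoxifen injected into the peritoneum on 5 consecutive days with cells taken 7 days after the first injection. Whether the wild-type mice carried the Cre transgene is not stated, so receptor loss and the transgene cannot be told apart. Ages are not given, and nothing states that each library came from its own mouse, so p-values measure the spread between these libraries.

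Notch signalling passes between touching cells. A ligand of the Delta or Jagged family on one cell binds a receptor on its neighbour, the receptor is cut by an ADAM protease and then by γ-secretase, and the freed intracellular part enters the nucleus, where it joins Rbpj and a Mastermind protein to switch on target genes. In the intestine the pathway is known for keeping progenitors dividing and for steering them to the absorptive fate: its target Hes1 represses Atoh1, the factor that secretory cells need.

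Recovered reads per library ranged from 10089313 to 12030844. Nr3c1 had 145, 123 and 175 normalized reads (recovered reads divided by the size factor of the library) in the knockout libraries, against 1119.8, 967 and 197 in the wild-type libraries. At Nr3c1 the library labelled wild type replicate 3 is thus close to the knockout and against its label, and each Notch gene is also given below with it left out. Which exons the deletion removes is not stated, so undeleted exons may add to these counts. Nr3c1 fell in the knockout (log2 change -2.03, SE 0.60, limma adjusted p = 0.0372), and a two-sided exact permutation test gave p = 0.1, the smallest that 3 against 3 libraries allow. Removing the library labelled wild type replicate 3 gave a log2 change of -2.82 (limma adjusted p = 0.000731). It was not called when knockout replicate 1, 2 or 3 was left out (limma adjusted p = 0.0631, 0.0816 and 0.0733), nor without wild type replicate 1 or 2 (limma adjusted p = 0.121 and 0.125). The epithelial markers Epcam, 18255 to 21874 normalized reads in the knockout and 20205 to 21731 in the wild type, and Krt8, 116788 to 137994 in the knockout and 121357 to 144280 in the wild type, were abundant in every library. The summed level of 17 leukocyte markers was 7052, 2789.6 and 2679 normalized reads in the knockout libraries, against 512, 745 and 1086 in the wild-type libraries, and that of 7 fibroblast markers was 2249, 344 and 739.9 in the knockout libraries, against 111, 232 and 540.1 in the wild-type libraries. Of 12 tested leukocyte markers 8 rose (5 without wild type replicate 1), and of 5 tested fibroblast markers 1 rose (0 to 3 with 1 library left out). Of all genes tested 15.0% were called higher in the knockout. The leukocyte sums did not overlap between the groups, whereas the fibroblast sums did.

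**Figure D1:**
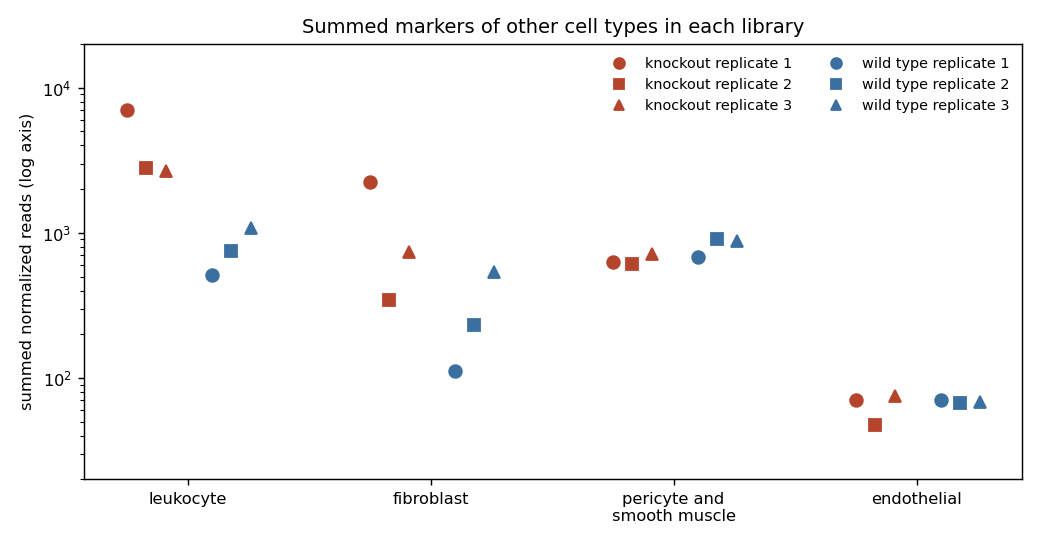
Summed normalized reads (log axis) of the leukocyte, fibroblast, pericyte and smooth muscle, and endothelial marker lists in each knockout library (red) and wild-type library (blue). Knockout replicate 1 had the highest leukocyte sum, 7052, and the highest fibroblast sum, 2249, while the endothelial sums lay between 47.6 and 75.4 in all libraries.

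A gene is called changed here when its Benjamini-Hochberg adjusted p, from a limma fit across all 12837 genes tested, was under 0.05. Of the 10 Notch genes 1 rose (Notch3) and 2 fell (Notch1 and Dll1) in the knockout libraries, and 7 did not pass. Of all genes tested 30.5% were called, 15.0% higher and 15.4% lower in the knockout, so 3 of 10 is a share near the background and is not a result about Notch genes as a set. Their median log2 change was 0.02, against 0.01 over all genes tested. The knockout and wild-type values did not overlap for 6 of the 10, compared with 50.7% of all genes tested: 3 were higher in the knockout (Notch3, Jag2 and Hes1; 25.2% of all genes) and 3 lower (Notch1, Dll1 and Dll4; 25.5%). What follows concerns how the individual genes differ.

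The start regions of the 3 called genes are shown because these genes moved in opposite directions. Windows of 250 bases before to 50 after the RefSeq start on GRCm38.p6 were found for 9 of the 10 genes, in 12 windows. Each is written 5′ to 3′ on the gene's own strand, here the minus strand, with capitals marking GGGCGG, the GC box bound by Sp-family factors, or AGAACA, a single glucocorticoid receptor hexamer, on either strand.
Notch1, chr2:26503773-26504072: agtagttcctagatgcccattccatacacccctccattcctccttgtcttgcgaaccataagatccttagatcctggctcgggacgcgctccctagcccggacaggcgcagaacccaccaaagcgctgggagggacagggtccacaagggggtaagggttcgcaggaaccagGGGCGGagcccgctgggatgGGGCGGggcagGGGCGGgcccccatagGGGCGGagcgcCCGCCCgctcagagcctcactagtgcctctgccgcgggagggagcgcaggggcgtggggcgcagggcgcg
Notch3, chr17:32166841-32167140: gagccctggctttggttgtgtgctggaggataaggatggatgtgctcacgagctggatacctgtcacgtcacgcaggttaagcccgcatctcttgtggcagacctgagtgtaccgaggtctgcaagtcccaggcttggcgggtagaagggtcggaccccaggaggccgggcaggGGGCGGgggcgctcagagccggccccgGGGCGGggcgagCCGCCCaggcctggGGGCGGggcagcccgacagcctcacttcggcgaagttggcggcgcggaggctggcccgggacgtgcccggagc
Dll1, chr17:15375774-15376073: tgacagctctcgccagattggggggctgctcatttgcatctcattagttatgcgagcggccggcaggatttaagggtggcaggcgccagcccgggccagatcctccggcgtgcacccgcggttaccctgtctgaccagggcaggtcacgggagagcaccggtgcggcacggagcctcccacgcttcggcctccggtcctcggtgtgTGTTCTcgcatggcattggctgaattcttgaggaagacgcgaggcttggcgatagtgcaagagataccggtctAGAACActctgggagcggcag
The GC box occurred 5 times in the Notch1 window and 4 times in the Notch3 window, and 35.7% of the 32851 windows in the table hold it. It was in 7 of the 12 Notch gene windows, also of genes not called, such as Notch2 (7 times) and Jag2 (5 times). The hexamer AGAACA occurred 2 times in the Dll1 window shown and in none of the other 11 Notch gene windows, against 19.0% of all windows. For Dll1 the table lists another start further upstream, whose window held neither motif. TGGGAA, the core of the Rbpj site, was in the 2 overlapping windows of Rbpj itself and in no other of the 12, while 25.6% of all windows hold it. These are matches of letters in short windows, and no binding was measured.

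Among the receptors, Notch1 (Entrez 18128, GRCm38 chr2:26457902-26503822) fell and was the steadiest of the 10 genes. It had 152, 165 and 163 normalized reads in the knockout libraries, against 305, 312 and 258 in the wild-type libraries. The groups did not overlap, and the knockout libraries lay close together. The means were 159.9 ± 6.89 in the knockout and 291 ± 29.4 in the wild type (SD, n = 3 each), a log2 change of -0.86 with a 95% interval of -1.17 to -0.55 (limma adjusted p = 0.00409). Notch1 stayed called in all 6 fits that left out 1 library, with log2 changes of -0.94 to -0.81 and a highest limma adjusted p of 0.0262. With the library labelled wild type replicate 3 left out, its log2 change was -0.94 (limma adjusted p = 0.00722). Notch1 is a main receptor of intestinal progenitors. In bulk RNA, fewer cells of a type and less RNA per cell cannot be told apart.

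Notch3 (Entrez 18131, chr17:32120820-32166896), a receptor best known from pericytes and vascular smooth muscle, rose at a very low level. It had 50.3, 14.5 and 10.5 normalized reads in the knockout libraries, against 4.25, 3.91 and 3.64 in the wild-type libraries, which are 48, 14 and 11 recovered reads against 4 in each. Every knockout library was above every wild-type library, but knockout replicate 1 was more than 3 times as high as either of the others. The log2 change was 2.09 with a 95% interval of 0.75 to 3.42 (limma adjusted p = 0.0308). Notch3 entered the test only through its knockout values, since no wild-type value reached the minimum of 10, so a difference was built into its selection. The call was lost without knockout replicate 1 (log2 change 1.44, adjusted p = 0.0616), without wild type replicate 1 (2.13, adjusted p = 0.0803), without wild type replicate 2 (2.08, adjusted p = 0.0843), with the library labelled wild type replicate 3 removed (2.04, adjusted p = 0.0683) and with quantile normalization (1.95, adjusted p = 0.0548), all by limma.

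Notch2 (Entrez 18129, chr3:98013538-98150367), which acts beside Notch1 in the intestinal crypt, did not pass the threshold. It had 159, 61.0 and 95.5 normalized reads in the knockout libraries, against 62.6, 68.4 and 67.4 in the wild-type libraries. The wild-type libraries were close together, while the knockout libraries spread on both sides of them. The log2 change was 0.56 with a 95% interval of -0.20 to 1.31 (limma adjusted p = 0.22). Without knockout replicate 1 it was 0.21, and without knockout replicate 2 it was 0.89 and passed (limma adjusted p = 0.0448). With the library labelled wild type replicate 3 removed, Notch2 was at 0.57 (limma adjusted p = 0.308).

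Knockout replicate 1 was the highest library for Notch2 and Notch3, and it also had the highest leukocyte and fibroblast marker sums. The part of these cells in either gene was not tested. Pericyte and smooth muscle markers summed to 610.5 to 719.8 normalized reads in the knockout and 684 to 904 in the wild-type libraries. Of the 11, 6 were tested and 1 was called, against 30.5% of all genes tested. The called gene was the pericyte proteoglycan gene Cspg4, which fell to 9.14 ± 8.68 in the knockout, against 95.5 ± 11.04 in the wild type (limma adjusted p = 0.00386). Its knockout values alone would not have met the filter on low values, so it entered the test through the wild type, where it was high. The other 5 tested markers were not called. With 1 library left out, the log2 change was -1.31 to -0.55 for Pdgfrb, -0.63 to -0.36 for Abcc9 and -0.23 to -0.01 for Acta2. It was -0.27 to 0.04 for Tagln and 0.36 to 0.85 for Myh11. The pericyte marker Rgs5 had 1.05, 0 and 0.955 normalized reads in the knockout libraries and 0 in the wild-type libraries.

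The fourth receptor gene, Notch4 (Entrez 18132, chr17:34564286-34588543), was measured for comparison with the receptors above. It had 286, 225 and 287 normalized reads in the knockout libraries, against 40.3, 46.0 and 52.8 in the wild-type libraries. It rose without overlap by a log2 change of 2.49, with a 95% interval of 2.07 to 2.91 (limma adjusted p = 0.000327), and stayed called in all 6 fits with 1 library left out (highest limma adjusted p = 0.0034). Notch4 is known as a receptor of endothelial cells. Of the 12 endothelial markers listed, Cldn5 had 0 reads in all 6 libraries. Cdh5 had 5.24, 1.03 and 0 normalized reads in the knockout and 0 in each wild-type library. The 12 summed to 47.6 to 75.4 in the knockout and 67.5 to 70.1 in the wild type. Of these markers 9 were not tested. Of the 3 tested, 0 passed by limma, 0 by edgeR and 0 by DESeq2, beside 30.5% of all genes tested that limma called. In limma 1 of the 3 had an unadjusted p under 0.05. With 1 library left out, the log2 change was -1.41 to -0.93 for Pecam1, -0.67 to -0.18 for Vwf and 0.44 to 0.75 for Egfl7. In limma, 1 marker was called lower with quantile normalization and 1 without knockout replicate 3. Which cells the reads of Notch4 came from was not tested.

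Divided by transcript length, the receptor transcripts changed in make-up. Levels between genes are compared here as normalized reads per kilobase of the longest protein-coding transcript in GENCODE M21. The 4 receptors summed to 80.9, 59.0 and 71.2 per kilobase in the knockout libraries, against 44.7, 46.9 and 42.1 in the wild-type libraries. Notch1 made up 24.4% ± 4.79 of that sum in the knockout and 68.9% ± 3.77 in the wild type (SD, n = 3 each). Notch4 made up 57.5% ± 3.78 in the knockout and 15.9% ± 2.82 in the wild type, so Notch4 was the most abundant receptor transcript in every knockout library and Notch1 in every wild-type library. Notch2 had 13.8% ± 4.54 in the knockout and 14.2% ± 0.989 in the wild type, and Notch3 had 4.22% ± 3.13 in the knockout and 1.10% ± 0.0739 in the wild type. The shares sum to a whole, so a higher share of one gene lowers the others.

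**Figure D2:**
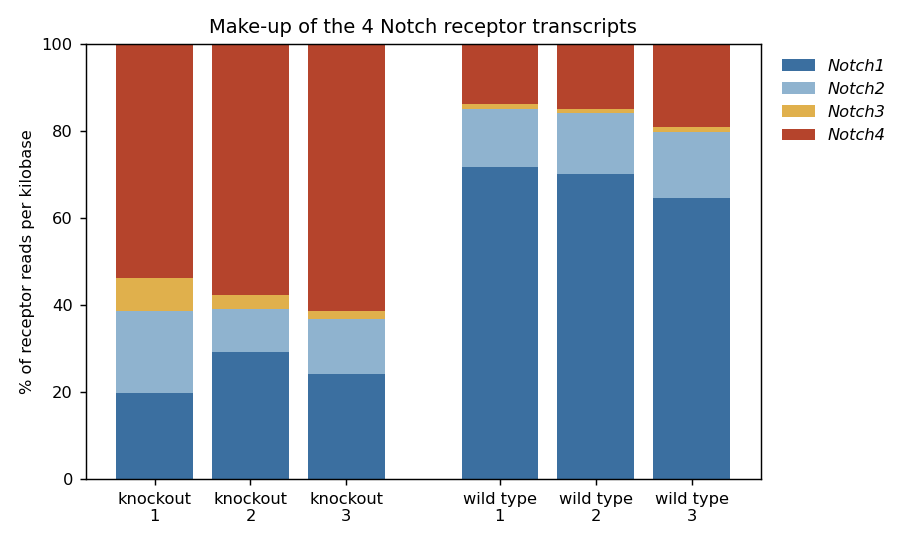
Share of each Notch receptor gene in the summed normalized reads per kilobase of the 4 receptors (vertical axis, %), by library, with the knockout libraries on the left. Notch4 fills 53.7% to 61.2% of each knockout bar, and Notch1 fills 64.6% to 71.8% of each wild-type bar.

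Of the Delta ligands, which present the signal to the receptors, Dll1 (Entrez 13388, chr17:15367354-15376932) fell. It had 28.3, 33.1 and 53.5 normalized reads in the knockout libraries, against 71.1, 70.4 and 66.5 in the wild-type libraries. The groups did not overlap, and knockout replicate 3 lay nearest to the wild type. The log2 change was -0.89 with a 95% interval of -1.51 to -0.28 (limma adjusted p = 0.0389). The call was lost without knockout replicate 1 or 2 (limma adjusted p = 0.0853 and 0.0913), without wild type replicate 1 or 2 (0.115 and 0.111), after removal of the library labelled wild type replicate 3 (log2 change -0.92, 0.0764) and with no filter on low values (0.0544). In these non-stranded libraries reads of Dll1 cannot be told from those of the long non-coding RNA gene A930024N18Rik on the other strand, which shares 20.6% of the exon bases of Dll1 in GENCODE M21. The other overlaps of exons with a gene on the opposite strand covered at most 7.50% of a Notch gene's exon bases.

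Dll4 (Entrez 54485, chr2:119325784-119335666), the other Delta ligand of the crypt, had 49.3, 75.5 and 67.8 normalized reads in the knockout libraries, against 88.1, 129 and 78.3 in the wild-type libraries. The values did not overlap, but 75.5 in knockout replicate 2 and 78.3 in the library labelled wild type replicate 3 were nearly equal. The log2 change of -0.60 did not pass (95% interval -1.19 to -0.0045, limma adjusted p = 0.11), nor without the library labelled wild type replicate 3 (-0.75, limma adjusted p = 0.0931).

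The Jagged ligands gave opposite signs, and neither passed. Jag1 (Entrez 16449, chr2:137081451-137116520) had 195, 227 and 188 normalized reads in the knockout libraries, against 339, 222 and 256 in the wild-type libraries. Wild type replicate 2 lay within the range of the knockout libraries, and the log2 change was -0.40 (95% interval -0.82 to 0.02, limma adjusted p = 0.124). Jag2 (Entrez 16450, chr12:112907803-112929812) had 140.5, 65.2 and 46.8 normalized reads in the knockout libraries, against 37.1, 34.2 and 46.4 in the wild-type libraries. The groups touched at 46.8 and 46.4, and knockout replicate 1, the library with the highest leukocyte and fibroblast sums, was more than 2 times as high as any other. The log2 change of Jag2 was 0.94 (95% interval 0.04 to 1.84, limma adjusted p = 0.102) and 0.49 without knockout replicate 1. It passed without knockout replicate 3 (1.28, limma adjusted p = 0.0482) and with DESeq2 (1.10, DESeq2 adjusted p = 0.0433). Without the library labelled wild type replicate 3, Jag1 was at -0.43 and Jag2 at 1.06 (limma adjusted p = 0.177 and 0.126).

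**Figure D3:**
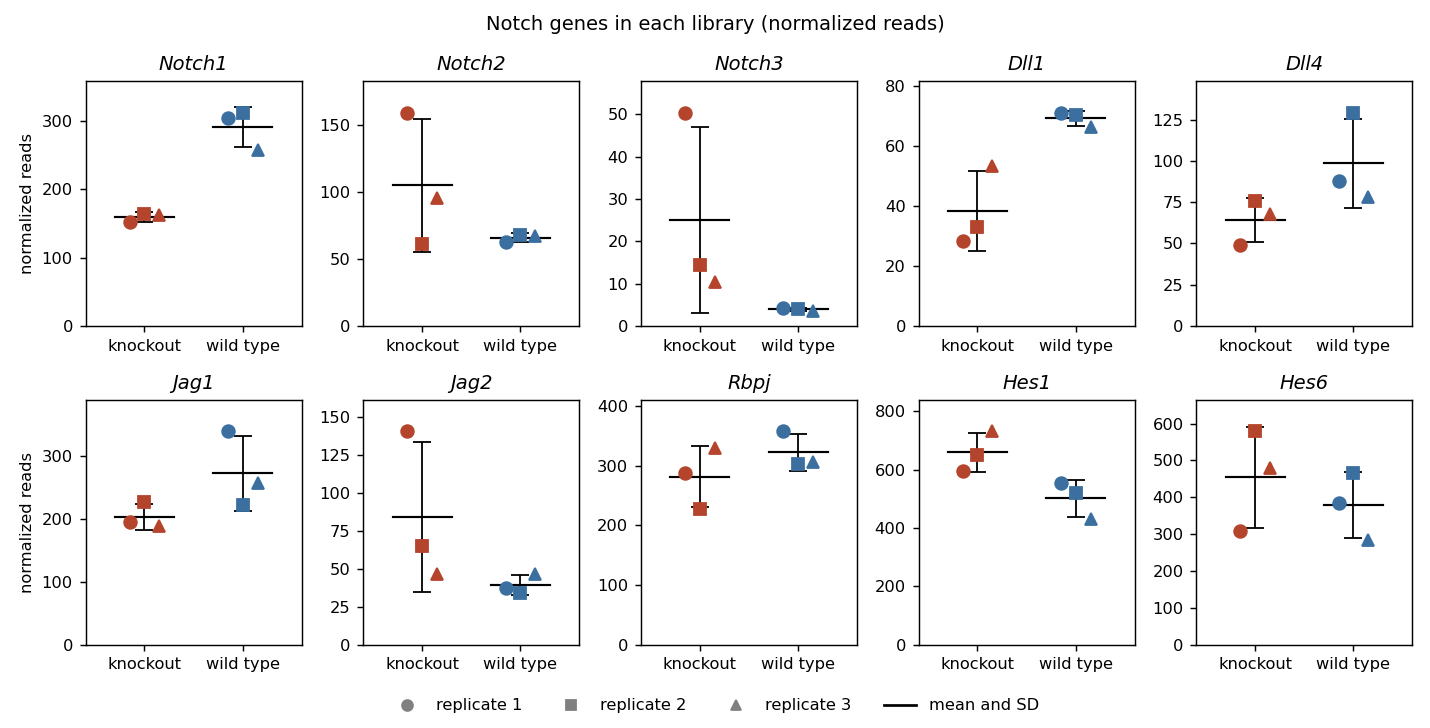
Normalized reads (vertical axis from 0, a scale per gene) of the 10 Notch genes in each knockout library (red, left) and wild-type library (blue, right), with the mean and SD of the 3 libraries in black. Notch1 and Dll1 are lower in every knockout library, while Notch2, Notch3 and Jag2 are highest in knockout replicate 1 at 159, 50.3 and 140.5.

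In the nucleus, Rbpj (Entrez 19664, chr5:53555779-53657445), the factor through which all Notch receptors act, had 287, 228 and 329 normalized reads in the knockout libraries, against 358, 303 and 307 in the wild-type libraries. The groups overlapped, and the log2 change was -0.21 (95% interval -0.59 to 0.17, limma adjusted p = 0.351). With the library labelled wild type replicate 3 removed, Rbpj was at -0.24 (limma adjusted p = 0.386).

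Hes1 (Entrez 15205, chr16:30065357-30067796), the best-known target of the pathway in intestine, was higher in each knockout library but did not pass the threshold. It had 595, 652 and 731 normalized reads in the knockout libraries, against 554, 521 and 431 in the wild-type libraries. Every knockout library was above every wild-type library. The means were 659.5 ± 68.3 in the knockout and 502 ± 63.8 in the wild type, and the log2 change of 0.40 (95% interval 0.08 to 0.71) had a limma adjusted p of 0.0612. It passed only without knockout replicate 1 (0.47, limma adjusted p = 0.0465) among the 14 alternatives. With the library labelled wild type replicate 3 removed, Hes1 was at 0.29 (limma adjusted p = 0.163).

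Hes6 (Entrez 55927, chr1:91411483-91414038), a relative that can oppose Hes1, had 307, 578 and 478 normalized reads in the knockout libraries, against 384, 464 and 285 in the wild-type libraries. The groups overlapped widely, the log2 change was 0.25 (95% interval -0.36 to 0.86, limma adjusted p = 0.498), and Hes6 was at 0.06 after removal of the library labelled wild type replicate 3 (limma adjusted p = 0.89).

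**Figure D4:**
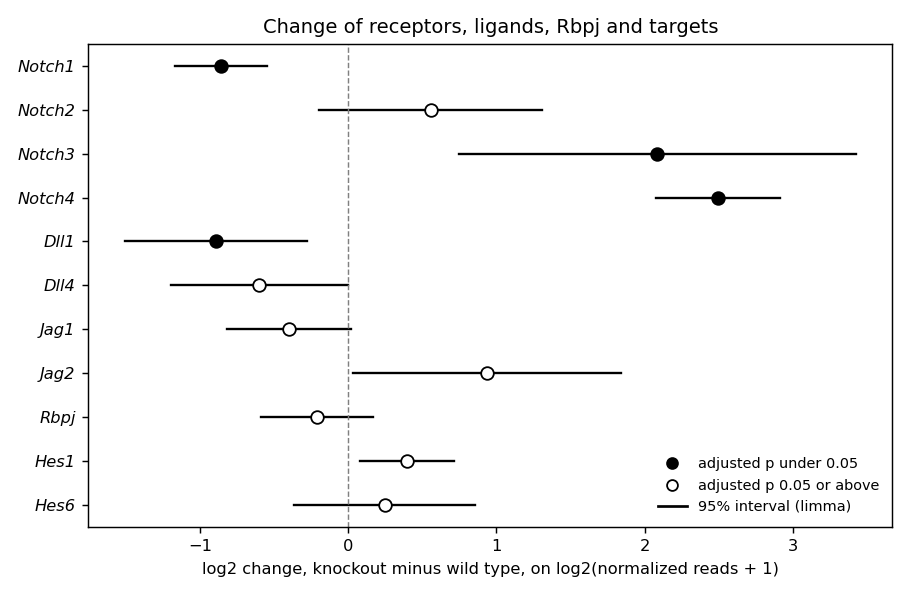
Log2 change, knockout minus wild type, on log2(normalized reads + 1) for the Notch receptors, ligands, Rbpj and targets, with Notch4 for comparison. Points are limma estimates with 95% intervals, and filled points (Notch1, Notch3, Notch4 and Dll1) passed an adjusted p of 0.05.

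Ordered by level per kilobase, the same genes led in both groups. In the knockout libraries Hes1 stood at 449 ± 46.5 and Hes6 at 341 ± 103 normalized reads per kilobase, and in the wild-type libraries at 342 ± 43.5 and 283 ± 67.3, and these neighbours overlapped in both groups. Rbpj came next, at 51.3 ± 9.32 in the knockout and 58.8 ± 5.55 in the wild type. In the knockout Notch4 followed, at 40.4 ± 5.45, and overlapped both Rbpj and Jag1. Jag1 was the highest ligand, at 36.2 ± 3.66 in the knockout and 48.5 ± 10.7 in the wild type. In the knockout, Dll4 (17.1 ± 3.601), Notch1 (16.9 ± 0.726), Jag2 (16.5 ± 9.72), Dll1 (10.7 ± 3.73), Notch2 (10.03 ± 4.75) and Notch3 (3.13 ± 2.74) followed, and each overlapped the next. In the wild type, Notch1 (30.7 ± 3.10) overlapped Dll4 (26.3 ± 7.19), and Dll1 (19.4 ± 0.697), Jag2 (7.69 ± 1.25), Notch2 (6.30 ± 0.296) and Notch3 (0.491 ± 0.0377) followed. There, Notch4 lay between Jag2 and Notch2 and overlapped both, while Jag1 and Notch1, Dll4 and Dll1, Dll1 and Jag2, and Notch2 and Notch3 did not.

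Beyond the 10 genes, 82 genes of the pathway and of the secretory lineage it controls were listed, of which 61 were tested, 9 rose, 12 fell and 40 did not pass. That is 21 of 61 called, against 30.5% of all genes tested, and the lists' median log2 change was -0.19 against 0.01. Among genes of receptor cleavage, 4 of 9 rose and 2 fell, beside 15.0% of all genes tested called higher and 15.4% called lower. Adam10, an ADAM protease that cuts the receptor before γ-secretase does, rose to 2052 ± 289.5 normalized reads in the knockout, against 1224 ± 33.7 in the wild type (log2 change 0.74, limma adjusted p = 0.00571). Ncstn, the γ-secretase subunit nicastrin, rose to 2331 ± 125 in the knockout, against 1564 ± 122 in the wild type (0.58, 0.00716), while Aph1b, an alternative subunit of the same complex, fell to 91.5 ± 14.1 in the knockout, against 182 ± 8.22 in the wild type (-0.996, 0.00513). Adam10, Ncstn and Aph1b stayed called with any 1 library left out. Adam17, a related protease (518 ± 32.6 in the knockout against 384.5 ± 15.7 in the wild type, limma adjusted p = 0.0211), lost its call without wild type replicate 1 or 2 (0.0733 and 0.0843). The number raised in the cleavage list was 2 without wild type replicate 1 or 2, and the number lowered was 1 in every fit that left out 1 library except the one without the library labelled wild type replicate 3, where it was 2. Reads of Aph1b and its close paralog Aph1c could have been split between them, so both values are uncertain.

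Genes that act on receptor maturation, on trafficking or as ligand-like proteins went both ways. Of 5 tested genes of glycosylation and maturation 2 rose and 1 fell, beside 30.5% of all genes tested that were called in either direction. Pofut1, the enzyme that adds O-fucose to Notch receptors, fell to 306 ± 32.1 normalized reads in the knockout, against 425 ± 32.6 in the wild type (log2 change -0.48, limma adjusted p = 0.027), and the convertase gene Furin rose to 1206 ± 371 in the knockout, against 694 ± 67.3 in the wild type (0.76, 0.0305). The call of Pofut1 was lost without knockout replicate 1 or 2 or wild type replicate 1 or 2 (limma adjusted p = 0.0506, 0.0686, 0.109 and 0.086). Furin was lost without knockout replicate 3 (0.0628), wild type replicate 1 or 2 (0.106 and 0.0673), or with the library labelled wild type replicate 3 removed (0.0683). Rfng, a glycosyltransferase of the Fringe family, rose to 455 ± 22.5 in the knockout, against 337 ± 42.8 in the wild type (0.44, 0.0386), and also lost its call in several fits with 1 library left out, up to a limma adjusted p of 0.133 without wild type replicate 1. Of 12 tested genes of ligand endocytosis and receptor trafficking 1 rose (3 without knockout replicate 1) and 1 fell. Dtx3l, a ubiquitin ligase also known as an interferon-induced gene, rose to 1130.2 ± 425 in the knockout, against 436 ± 54.4 in the wild type (1.31, 0.0104). Dtx4, of the Deltex family, fell to 65.7 ± 4.78 in the knockout, against 117 ± 24.0 in the wild type (-0.80, 0.0201), a call lost without wild type replicate 1 or 2 (0.0817 and 0.0608). Dlk1, a Delta-like membrane protein, rose to 36.0 ± 7.73 in the knockout, against 8.40 ± 2.21 in the wild type (1.98, 0.00478). Like Notch3, Dlk1 reached the minimum in 3 libraries of the knockout but not of the wild type, so its entry into the test depended on its high knockout values.

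In the nuclear complex, 3 of 15 tested genes fell and 12 did not pass, beside 15.4% of all genes tested that were called lower. Maml1, the Mastermind coactivator, fell to 210 ± 14.6 normalized reads in the knockout, against 308.5 ± 31.5 in the wild type (log2 change -0.55, limma adjusted p = 0.0186), a call lost without wild type replicate 2 (0.0777). The corepressor genes Hdac1 (1305 ± 139 in the knockout against 1892 ± 254 in the wild type, limma adjusted p = 0.0218) and Spen (449 ± 48.7 in the knockout against 611 ± 58.7 in the wild type, 0.0335) also fell. Hdac1 was lost without knockout replicate 3 or wild type replicate 1 (limma adjusted p = 0.0608 and 0.0841), and Spen without knockout replicate 1 or 2 (0.0671 and 0.0793), wild type replicate 1 or 2 (0.128 and 0.0665), or on removal of the library labelled wild type replicate 3 (0.0688). The number lowered was 1 without wild type replicate 1 or 2.

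Of the other genes known as Notch targets in some tissue, 7 of 14 were tested, 2 fell and 5 did not pass. Of all genes tested 15.4% were called lower. Hes5, Hey1 and Heyl, classical targets elsewhere, had at most 2.07 normalized reads in any library. Nrarp, a target that feeds back on the pathway, had 134, 127 and 124 normalized reads in the knockout libraries, against 176, 172 and 132 in the wild-type libraries, and did not pass (log2 change -0.30, limma adjusted p = 0.184). An antisense gene, Gm38287, covers 79.4% of its exon bases, so its reads cannot be assigned to a strand. Id2 and Id3, inhibitors of bHLH factors that other pathways also control, fell to 120 ± 27.0 and 646 ± 104 in the knockout, against 287 ± 37.0 and 1461 ± 312 in the wild type (limma adjusted p = 0.0046 and 0.00475), and stayed called with any 1 library left out. The cell-cycle gene Ccnd1 had 2149 ± 1231 in the knockout and 998 ± 156 in the wild type (limma adjusted p = 0.0653) and passed without knockout replicate 1 or 2 (0.0398 and 0.033) and with DESeq2, and 23.4% of its exon bases lie opposite those of another gene.

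Among regulators of the secretory lineage, 3 of 11 tested genes fell and 8 did not pass, while 15.4% of all genes tested were called lower. Atoh1, the gene that Hes1 represses, had 93.3, 223.5 and 137.5 normalized reads in the knockout libraries, against 432, 531 and 240.4 in the wild-type libraries. Its highest knockout library lay just below the library labelled wild type replicate 3. Atoh1 fell by 1.42 on the log2 scale (SE 0.38, limma adjusted p = 0.0264), and by 1.75 after removal of the library labelled wild type replicate 3 (limma adjusted p = 0.0155). The call was lost when knockout replicate 3 (0.0699), wild type replicate 1 or wild type replicate 2 was left out (0.0923 and 0.0945). Klf4, a factor of goblet cells and surface colonocytes, fell to 6019 ± 1110.1 in the knockout, against 10242 ± 590.1 in the wild type (log2 change -0.78, limma adjusted p = 0.011), and stayed called with any 1 library left out. Creb3l1, a factor of secretory capacity, fell to 742 ± 279 in the knockout, against 1542 ± 310.1 in the wild type (-1.12, 0.0278), and lost its call without wild type replicate 1 or 2 (0.0845 and 0.0994). The number lowered was 1 without wild type replicate 1 or 2, and 5 with TMM scaling or DESeq2.

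**Figure D5:**
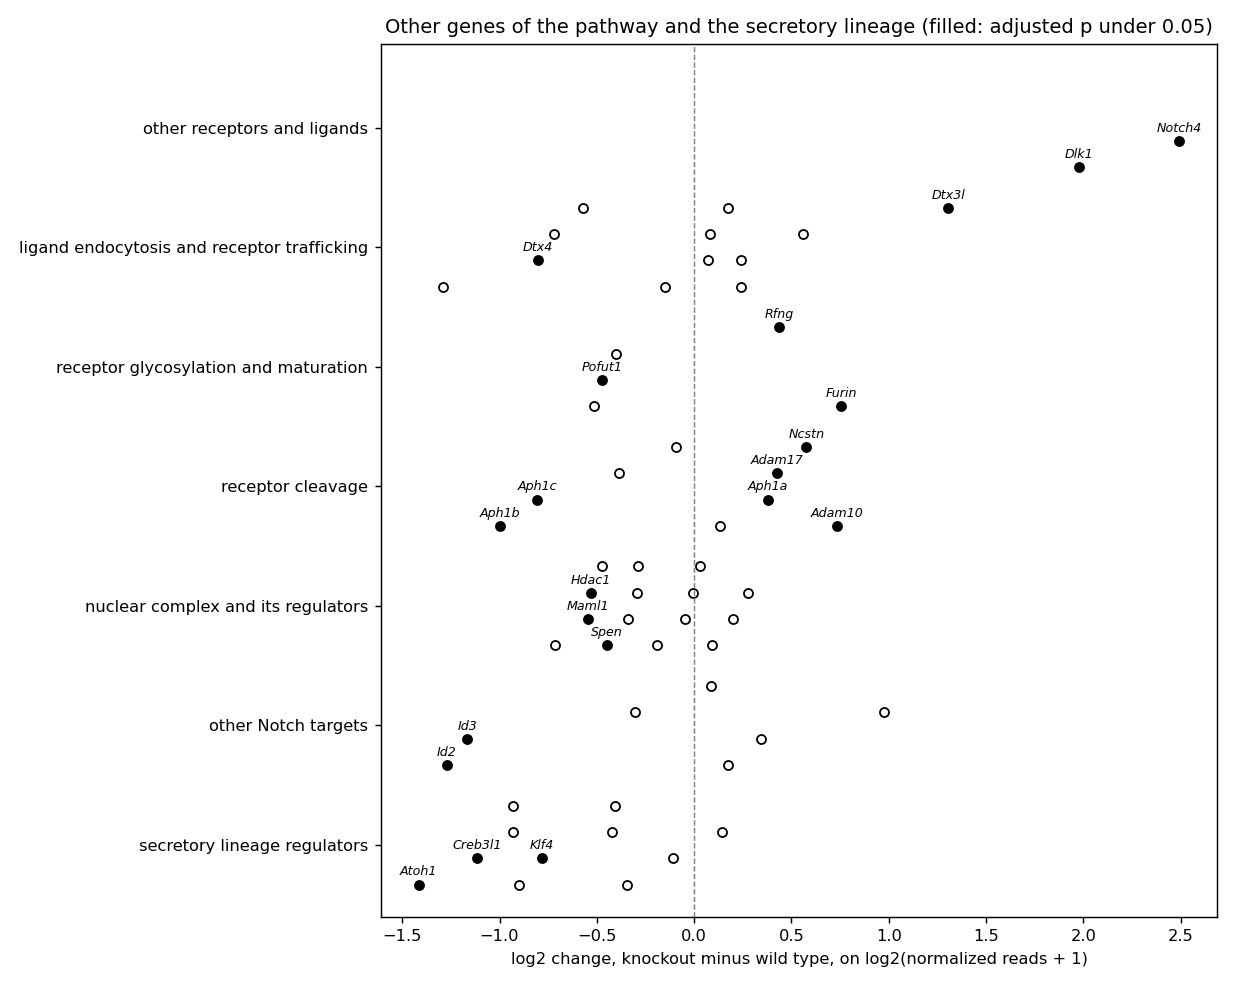
Log2 change, knockout minus wild type, on log2(normalized reads + 1) of the 61 tested genes of the other pathway lists and of the secretory lineage regulators, 1 point per gene, with vertical offsets within a list only to separate points. Filled, named points passed a limma adjusted p of 0.05, from Atoh1 at -1.42 to Notch4 at 2.49.

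The genes most like Notch1, Hes1 and Hes6 were sought among 12114 tested genes by the root mean square difference of mean-centred log2 values over the 6 libraries. Nearest to Notch1 were Zfp422, Trak2 and Cdc42ep4, at 0.0446, 0.0486 and 0.0539 log2 units. Each was lower in the knockout, which the choice by likeness to Notch1 fixed in advance. Trak2, for example, had 432 ± 13.3 normalized reads in the knockout, against 792.5 ± 104 in the wild type. Nearest to Hes1 were Sirt6, Prx and Cutc, at 0.0735, 0.0788 and 0.0836, and nearest to Hes6 were Dcxr, Fbxl8 and Snx16, at 0.118, 0.138 and 0.145. Of the genes nearest to Hes1 and Hes6 none passed the threshold (limma adjusted p of 0.113 to 0.697). They were picked for likeness to genes that did not pass, so this is not a separate result.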

How the data were processed

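Libraries were non-stranded TruSeq v2 mRNA preparations of 3 knockout and 3 wild-type samples, per the labels' protocols. The submitters' processing notes name FastQC, TopHat, DESeq2 and mm10, with no versions. The sources used here do not give the read counter or the annotation. The deposited values are a signal: 100% of those in each column were whole multiples of a fixed step within 0.001 reads, as reads scaled by a library size factor are, and dividing by the step gave recovered reads.

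Rows are Entrez numbers, of which 23666 of 23725 matched a symbol in RefSeq's GRCm38.p6 table, the assembly behind mm10. Coordinates and start windows are RefSeq's. Differences were tested in R 4.3.3 with limma 3.58.1 (mean trend) on log2(value + 1) for 12837 genes with at least 10 in at least 3 libraries, with Benjamini-Hochberg adjustment over all of them. Log2 changes on this scale understate those of low genes, and an adjusted p is from limma unless another tool is named. Alternatives were pseudocounts of 0.5 and 5, no filter, a filter at 50, TMM scaling, quantile normalization, edgeR 4.0.16 and DESeq2 1.42.0 on recovered reads, and each library left out with the tested genes kept. The fits were run on simulated reads with the same dispersion setting for every gene and far fewer changed genes than were called here. That run does not give their error rates in these data. Replicate numbers are names in accession order, the labels give no batch, and library pairs within a group differed beyond sampling noise (chi-square per degree of freedom 15.0 to 57.5).

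The 10 genes and all lists were chosen with earlier results of these data known. Named beside them are Nr3c1, up to 4 tested genes per pathway list and 3 per marker list with the smallest adjusted p, and the 3 genes nearest in pattern to Notch1, Hes1 and Hes6. Other listed genes that are named were chosen after their values were seen.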

Additional observations from a re-analysis of the deposited data

How the results depend on the processing

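The signs of the 10 Notch genes and of Nr3c1 were the same under all 14 alternatives in which they were tested; the cause of the changed calls below was not tested, apart from fewer libraries or genes. The number of Notch genes raised, 1 by limma on all libraries, was 0 with a filter at 50, which leaves out Notch3 and Jag2, 0 with quantile normalization (2 of 10 were lowered there), 2 with DESeq2, and 0 to 2 with 1 library left out. The number lowered, 2, was 1 with no filter and 1 to 2 with 1 library left out. Over all genes, 970.0 to 1782 rose and 953 to 1825 fell with 1 library left out, against 1931 and 1979, lowest without wild type replicate 1 or 2. In the other pathway and marker lists 16 to 28 genes rose and 9 to 24 fell, against 25 and 20. The log2 change of Nr3c1 ran from -2.82 to -1.57 with 1 library left out. No paired analysis was possible because the labels give no replicate numbers that the groups share. With 4 recovered reads in each wild-type library, the size of the rise of Notch3 is poorly fixed, at 1.52 with a pseudocount of 5 and 2.20 with 0.5.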

Other observations

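Markers of the cell types that Notch signalling balances moved in both directions, beside 30.5% of all genes called. Of the 10 genes listed as goblet cell markers 1 rose and 1 fell. The riser, Muc13, is a membrane mucin that is not specific to goblet cells. It rose to 65423 ± 5065 normalized reads in the knockout, against 27068 ± 3711 in the wild type (limma adjusted p = 0.00407). Muc2, the secreted gel mucin of goblet cells, fell to 9662 ± 1363 in the knockout, against 28352 ± 8879.6 in the wild type (limma adjusted p = 0.00616). The other 8 did not pass, and the median log2 change of the list was 0.01. Tff3 passed as higher without knockout replicate 1 (limma adjusted p = 0.0355) and with DESeq2 (DESeq2 adjusted p = 0.0179). Retnlb passed as higher without wild type replicate 2, and Agr2 as lower without knockout replicate 2 (limma adjusted p = 0.00303 and 0.0229). Of 6 tested enteroendocrine markers 2 rose, the peptide hormone genes Pyy (203 ± 48.9 in the knockout against 39.3 ± 5.64 in the wild type, limma adjusted p = 0.000736) and Insl5 (128 ± 51.7 in the knockout against 33.0 ± 8.18 in the wild type, limma adjusted p = 0.00567). Muc13, Muc2, Pyy and Insl5 stayed called with any 1 library left out. Chga, a granule gene of enteroendocrine cells chosen after its values were seen, had 146, 203 and 171 normalized reads in the knockout libraries, against 334, 323 and 147.5 in the wild-type libraries, and passed, as lower, only when the library labelled wild type replicate 3 was removed (limma adjusted p = 0.0147, against 0.211 on all libraries). Chgb also passed, as lower, only in that fit (limma adjusted p = 0.00782). There 2 of the 6 enteroendocrine markers rose and 2 fell. Of 3 tested tuft cell markers Avil (99.2 ± 50.4 in the knockout against 17.5 ± 4.12 in the wild type) and Alox5ap (89.4 ± 28.4 in the knockout against 17.4 ± 10.1 in the wild type) rose and Trpm5 (4.78 ± 3.12 in the knockout against 16.8 ± 2.70 in the wild type) fell. The other 3 of the 6 listed were not tested. Leukocyte markers also rose in the knockout, and which cells the reads of Avil and Alox5ap came from was not tested. Trpm5 entered the test through its wild-type values, and its call was lost without knockout replicate 2 or 3 or wild type replicate 1 or 2, up to a limma adjusted p of 0.0936.

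Of 10 stem cell markers 3 fell and 7 did not pass, beside 15.4% of all genes tested that were called lower. Sox9 (261 ± 58.1 in the knockout against 664 ± 89.2 in the wild type, limma adjusted p = 0.00233) and Znrf3 (46.8 ± 3.44 in the knockout against 103.5 ± 7.79 in the wild type, limma adjusted p = 0.00399) stayed called with any 1 library left out. Axin2 (124 ± 31.6 in the knockout against 214 ± 28.4 in the wild type, limma adjusted p = 0.0237) lost its call without knockout replicate 3 or wild type replicate 1 or 2, up to a limma adjusted p of 0.0952. Lgr5, the marker of crypt stem cells, had 15.7, 48.6 and 52.5 normalized reads in the knockout libraries, against 59.4, 53.8 and 42.8 in the wild-type libraries, and did not pass (limma adjusted p = 0.352). It too was chosen after its values were seen. Of 10 epithelial markers 2 rose (Krt20 and Vil1) and 2 fell (Cdx1 and Cdx2). The number that fell was 0 without wild type replicate 1 or 2, against 2 with edgeR and 2 with DESeq2 on all libraries. The number that rose was 1 without wild type replicate 1 or 2, where Vil1 lost its call (limma adjusted p = 0.0643 and 0.0671). Krt20, a keratin of mature surface cells, rose to 31957 ± 2914 in the knockout, against 16247 ± 2804 in the wild type (limma adjusted p = 0.0074), and stayed called with any 1 library left out.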
